A study of Homo sapiens with 16 samples.

Results

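The direct RNA sequencing (DRS) libraries of 3 short *EIF4G2* minigenes, 1 library each and 3 of the 16 libraries in the series, were chosen by their labels and compared at introns 15 to 18. *EIF4G2* encodes a translation initiation factor related to eIF4G, and the minigenes were expressed in HEK293T cells, an easily transfected line derived from human embryonic kidney. The short_1 minigene carries exons 15 to 19 with introns 15 to 18 behind a CMV promoter, the short + 72 nt minigene adds the first 72 nt of intron 19 after exon 19, and the short + 72 nt + mut 5′SS minigene, called the mutated-segment minigene from here on, carries the same segment with the first 4 nt of intron 19 mutated. All 3 inserts come from genomic DNA of a lymphoblastoid line and were transfected as plasmids, so they overexpress a part of the gene without its downstream introns, and RNA was collected the day after. The question was whether a 5′ splice site after exon 19, without the 3′ splice site of intron 19, changes removal of the upstream introns. The vector sequence after the segment was not available, so other 3′ splice sites there were not assessed.

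In the exon definition model, the splice sites on either side of an exon are recognized together, and U1 snRNP bound to the 5′ splice site after an exon favors recognition of the 3′ splice site before it. Exon 19 lies between intron 18 and intron 19, so the 5′ splice site of intron 19 is the site that would pair with the 3′ splice site of intron 18. An intron that remains in polyadenylated RNA is called retained, and one whose splice site is passed over by a longer splicing event is called skipped.

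The sequences on which the comparison turns were read from the reference genome (GRCh38, minus strand of chromosome 11) with the introns of the GENCODE v44 transcript EIF4G2-201. The added segment lies at chr11:10799480-10799551, inside intron 19 (chr11:10799425-10799551, 127 nt), and it makes up 56.7% of that intron. Capitals mark the 4 nt that the mut 5′SS minigene changes, and the bases put in their place are not given in the sources used here.
added segment: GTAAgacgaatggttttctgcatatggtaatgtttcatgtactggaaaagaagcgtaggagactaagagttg

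The remaining 55 nt of intron 19, which hold its 3′ splice site, are absent from all 3 minigenes. Next to it are shown the ends of intron 18 (chr11:10799757-10800089, 333 nt), the intron that the segment was added to act on, with the GT and AG in capitals. The 5′ splice sites are printed as the last 3 exonic and the first 6 intronic bases.
5′ splice site of intron 18 (chr11:10800084-10800092): cagGTaaga
3′ end of intron 18 (chr11:10799757-10799793): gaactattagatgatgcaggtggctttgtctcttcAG
5′ splice site of intron 19 (chr11:10799546-10799554): tagGTaaga

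The sites of introns 18 and 19 match the U1 consensus CAGGTAAGT at 8 and 7 of 9 positions. Upstream, introns 16 and 17 are both short at 83 nt (chr11:10800648-10800730 and chr11:10800349-10800431), and they flank exon 17 (216 nt, chr11:10800432-10800647). That exon is shown because it was the one most often left out of the reads. It is in capitals, between the last 20 nt of intron 16 and the first 6 nt of intron 17 (chr11:10800426-10800667).
exon 17 and its splice sites: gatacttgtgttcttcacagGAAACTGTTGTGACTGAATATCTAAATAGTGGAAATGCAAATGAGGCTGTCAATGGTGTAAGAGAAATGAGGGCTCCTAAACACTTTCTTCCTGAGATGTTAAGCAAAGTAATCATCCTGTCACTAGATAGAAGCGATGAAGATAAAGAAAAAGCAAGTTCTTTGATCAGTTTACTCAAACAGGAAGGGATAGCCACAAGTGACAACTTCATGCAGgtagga

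The 5′ splice sites of introns 15, 16 and 17 match the consensus at 6, 6 and 7 of 9 positions. Of the 20 bases before the terminal AG, 12 are pyrimidines in intron 16, 13 in intron 18 and 16 in intron 15.

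The libraries held 296 *EIF4G2* reads for short_1, 3004 for short + 72 nt and 613 for the mutated segment. Full-span reads, which run over exactly introns 15 to 18 in short_1 and over introns 15 to 18 and the segment in the others, numbered 186, 1200 and 206. A second set without overlap, called shorter reads, begins at intron 16 or 17 and ends at the same place, and it held 39, 935 and 258 reads. DRS reads start at the 3′ end of the RNA, so that shorter reads are those whose 5′ part was not read. The share of full-span reads among both sets came to 82.7% for short_1, 56.2% for the intact segment and 44.4% for the mutated segment, and each pair differed by an interval without 0 (-26.5, -11.8 and -38.3 percentage points in the order short + 72 nt minus short_1, mutated minus intact segment, mutated segment minus short_1). This difference in how far reads ran runs alongside every comparison below, and its part in them was not tested beyond the comparison of both sets.

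With 1 library per minigene there is no replicate check. Fisher's exact test on reads (two-sided, Benjamini-Hochberg adjusted over the 12 comparisons of 4 introns and 3 pairs for each status) compares those libraries, not the conditions, and the 95% Wilson and Newcombe intervals cover counting error only. The nearest measure of replicate spread is the pair of short_1 RT-PCR amplicon libraries, in which retention differed between replicates by 8.31 points at intron 16, 9.61 at intron 17 and 7.78 at intron 18.

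The intact segment went with less retention of intron 18 and, at the same time, with more retention of introns 16 and 17. Full-span short_1 reads kept intron 18 in 71.0% of 183 reads (64.1% to 77.1%), against 53.7% of 1195 in short + 72 nt (50.9% to 56.5%) and 78.0% of 205 with the mutated site (71.9% to 83.2%). The drop with the segment was 17.3 points (interval -24.0 to -9.82, adjusted exact p = 2.34e-05, Fisher's exact test). The short_1 amplicon replicates, from another assay, retained intron 18 in 63.2% and 71.0% of reads. With the mutation, retention was 24.3 points higher than with the intact segment (17.6 to 30.2, adjusted exact p = 1.65e-10). Both sizes leave out reads of these minigenes that lack the segment. With those reads added, an alternative chosen after seeing the data, the differences were -21.3 and 28.1 points. Retention in the mutated-segment library and short_1 did not differ past the threshold, with an interval from -1.64 to 15.6 points (adjusted exact p = 0.157). Intron 18 was excised in 20.0% of mutated-segment reads and 29.0% of short_1 reads. That difference of -8.96 points (-17.5 to -0.412, adjusted exact p = 0.0586) did not pass, but it did under some alternatives given below.

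Intron 17, the nearest intron upstream, was retained in 13 of 186 short_1 reads (6.99%), 254 of 1194 short + 72 nt reads (21.3%) and 72 of 206 reads with the mutated site (34.95%). All 3 pairs passed the threshold at this intron. Retention rose by 14.3 points with the segment (9.17 to 18.02, adjusted exact p = 2.92e-06) and by a further 13.7 points with the mutation (7.04 to 20.8, adjusted exact p = 6.24e-05). Between the intact and the mutated segment, introns 17 and 18 thus changed in the same direction, whereas between short_1 and short + 72 nt they changed in opposite directions.

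Intron 16 was retained in 11 of 185 short_1 reads (5.95%), 210 of 1200 short + 72 nt reads (17.5%) and 46 of 206 reads with the mutated site (22.3%). Both libraries with the segment were above short_1, by 11.6 points (6.71 to 15.0, adjusted exact p = 4.06e-05) and 16.4 points (9.62 to 23.1, adjusted exact p = 8.98e-06). Between them the difference was 4.83 points (-0.792 to 11.3, adjusted exact p = 0.146), which did not pass. Intron 15, the first of the minigene, was retained in 1.61%, 4.12% and 4.46% of reads, and no pair passed there (for example, adjusted exact p = 0.157 for either minigene with the segment against short_1).

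The short_1 amplicon replicates bear on the size of these upstream differences. They retained intron 16 in 5.97% and 14.3% of reads and intron 17 in 8.05% and 17.7%. The higher replicate thus lies closer to short + 72 nt than to the short_1 DRS library, and below the mutated-segment library at both introns. In the DRS libraries of minigenes with more downstream sequence, intron 17 was retained in 2.23% (long, introns 15 to 20), 8.88% (Δint19+20, the long minigene without introns 19 and 20) and 4.01% of reads (mut 5′SS, the long minigene with the mutated site). All of these were below both short minigenes with the segment, in values set side by side without a test. The 159 short + 72 nt reads without the segment differed from short_1 in retention by -2.17 points at intron 16 and -0.700 at intron 17. At intron 18 the difference was -52.1 points, with 29 of 153 reads retaining it (19.0%). Reads with an upstream intron retained nearly always kept intron 18, so low upstream retention here cannot be told apart from low intron 18 retention. Skipping in these reads was 5.03 points above short_1 at intron 16 and 5.66 at intron 17 (adjusted exact p = 0.00756 and 0.00496).

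**Figure D1:**
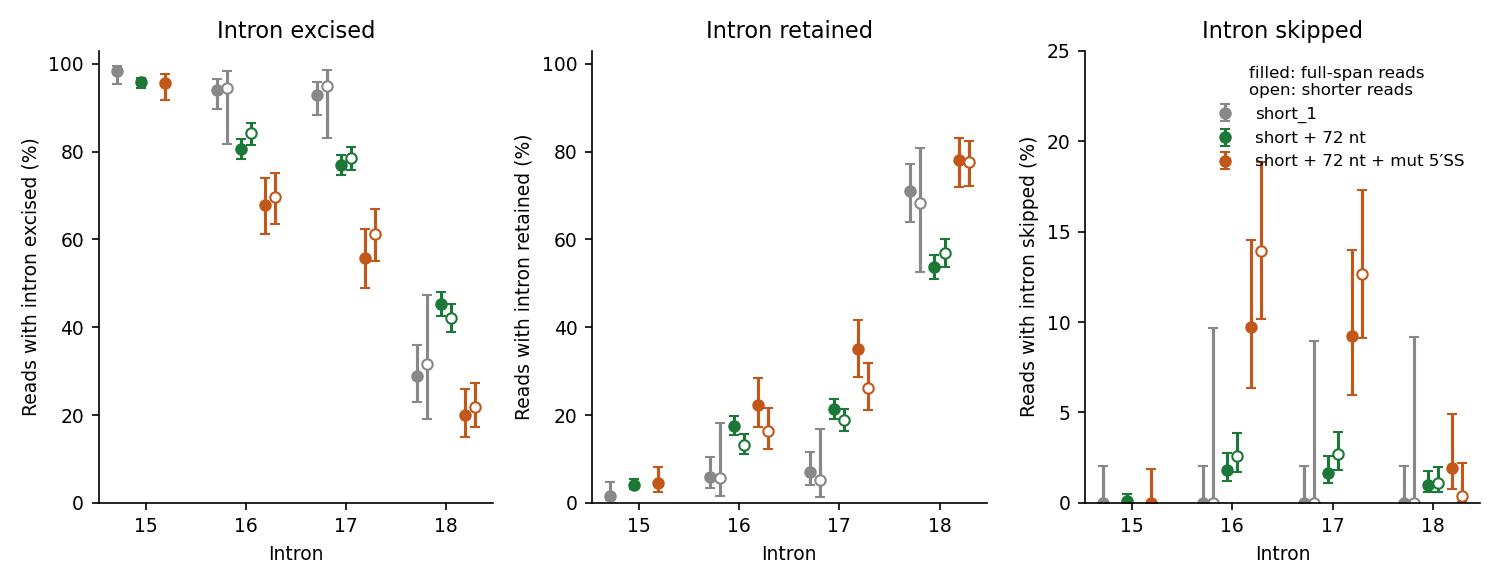
Percentage of reads in which introns 15 to 18 were excised, retained or skipped in the short_1, intact-segment (short + 72 nt) and mutated-segment (short + 72 nt + mut 5′SS) libraries, in full-span reads (filled) and shorter reads (open), with 95% Wilson intervals as bars. Intron 18 retention is lowest with the intact segment (53.7%), whereas intron 17 retention goes from 6.99% to 21.3% and 34.95%, and skipping of introns 16 and 17 is at 9.71% and 9.22% of full-span reads with the mutated site.

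Shorter reads gave the same order at introns 17 and 18. Intron 18 was retained in 26 of 38 short_1 reads (68.4%), 529 of 930 short + 72 nt reads (56.9%) and 199 of 256 reads with the mutated site (77.7%). The mutated and intact segment differed by 20.9 points (14.5 to 26.5, adjusted exact p = 4.87e-09, Fisher's exact test over 9 comparisons). With 38 reads in short_1, the difference of -11.5 points between short + 72 nt and short_1 did not pass (-24.4 to 4.65, adjusted exact p = 0.248). Intron 17 was retained in 5.13%, 18.8% and 26.1% of shorter reads, and the mutated-segment library was above both others (adjusted exact p = 0.0405 against short + 72 nt and 0.00962 against short_1), while short + 72 nt against short_1 reached an adjusted exact p of 0.0721. For intron 16 the values were 5.56%, 13.2% and 16.4%, and no pair passed. Both read sets come from the same libraries, so the second is a further set of molecules and not a further replicate.

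The minigenes also differed in which introns were retained together. Among full-span reads determined at all 4 introns (182, 1178 and 201), fully spliced reads made up 29.1% in short_1, 44.6% in short + 72 nt and 14.4% with the mutated site. All 3 pairs passed over 18 comparisons of 6 classes, at 15.4 points (adjusted exact p = 0.000169), -30.1 points (adjusted exact p = 5.16e-16) and -14.7 points (adjusted exact p = 0.00139). The mutated-segment library thus had fewer fully spliced reads than short_1. Intron 18 itself did not pass between them, although its excision was near the threshold (adjusted exact p = 0.0586).

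Reads that kept intron 18 and no other intron were the largest class in short_1, at 63.7%. This class made up 31.6% in short + 72 nt and 40.3% with the mutated site, and both were below short_1 (-32.2 points, adjusted exact p = 2.38e-15, and -23.4 points, adjusted exact p = 1.57e-05). Reads with intron 18 and at least 1 upstream intron retained went the other way, from 7.14% in short_1 to 20.5% and 31.3%. Each of the 3 pairs passed for this class (13.4 points, adjusted exact p = 1.04e-05; 10.8 points, adjusted exact p = 0.00165; 24.2 points, adjusted exact p = 8.23e-09). Completely unspliced reads, a part of that class, were 3, 47 and 9 in number (1.65%, 3.99% and 4.48%), and they did not differ past the threshold. Most reads of the class were partly spliced ones with intron 15 removed. Intron 15 excised with introns 16 to 18 retained was found in 7, 139 and 33 full-span reads, and introns 15 and 16 excised with introns 17 and 18 retained in 2, 48 and 21.

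**Figure D2:**
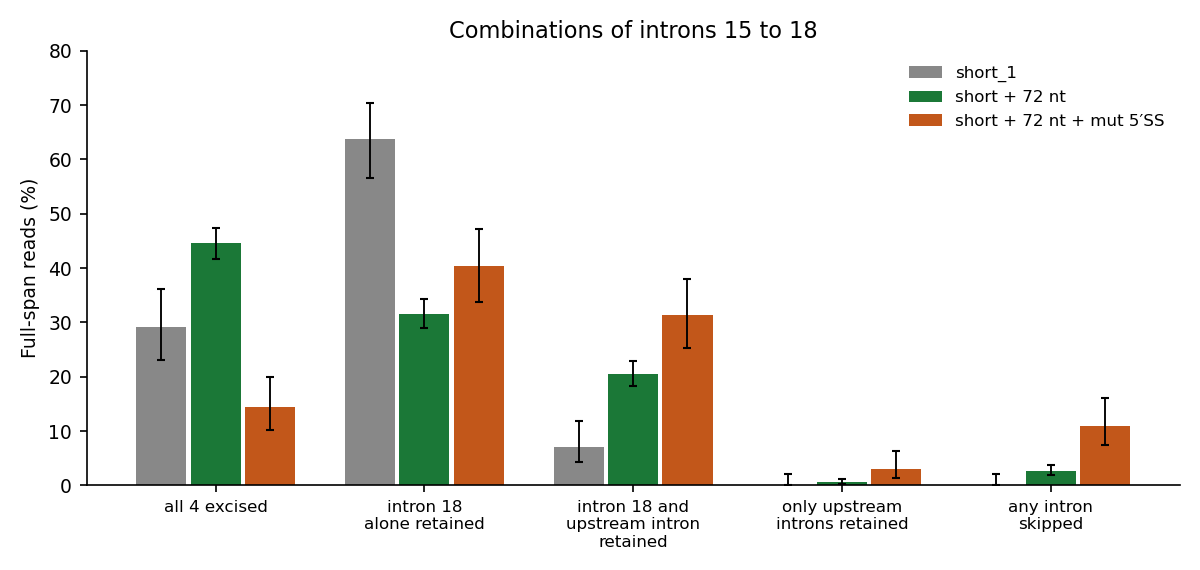
Percentage of full-span reads determined at introns 15 to 18 in each class of combinations, for 182 short_1 reads, 1178 reads with the intact segment and 201 with the mutated segment, with 95% Wilson intervals as error bars. Fully spliced reads are highest with the intact segment (44.6%), and reads keeping intron 18 with an upstream intron go from 7.14% to 20.5% and 31.3%.

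Nearly all partly spliced reads fell on a single 5′ to 3′ series, in which the retained introns form an unbroken run ending at intron 18. This held for 125 of 126 partly spliced reads in short_1, 559 of 574 in short + 72 nt (97.4%) and 135 of 141 with the mutated site (95.7%), counted over reads without a skipped intron and defined after the values were seen. Reads keeping only intron 18 fit this series by definition, and they were 116, 372 and 81 of these reads. The shares thus rest largely on intron 18 retention. Retained intron 15 was accompanied by retained intron 18 in 3 of 3, 49 of 49 and 9 of 9 reads. Retained intron 16 was accompanied by retained intron 17 in 10 of 11, 198 of 205 and 46 of 46 reads. The exceptions without intron 18 were 0, 7 and 6 reads, or 0.594% and 2.99% of determined reads in the libraries with the segment, and the mutated-segment library was above short + 72 nt (2.39 points, adjusted exact p = 0.0102) and short_1 (2.99 points, adjusted exact p = 0.0401). The call against short_1 was lost when combinations of fewer than 2 reads were left out (2.54 points, adjusted exact p = 0.0797).

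The libraries also differed at intron 17 among reads with intron 16 excised. Intron 17 was retained in 2 of 174 such short_1 reads (1.15%), 56 of 967 short + 72 nt reads (5.79%) and 26 of 140 reads with the mutated site (18.6%). These are statuses found in the same read, and the order of removal was not measured. Against the intact segment the mutated one was 12.8 points higher, with an interval from 6.97 to 20.1 points, and no test was run since the quantity was chosen after the values were seen.

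Intron 18 was compared next within reads with introns 15 to 17 excised, where the upstream introns have 1 status. It was retained in 116 of 169 such short_1 reads (68.6%), 372 of 907 short + 72 nt reads (41.0%) and 81 of 114 reads with the mutated site (71.1%). The difference between short + 72 nt and short_1 was -27.6 points (-34.9 to -19.6, adjusted exact p = 1.40e-10, Fisher's exact test over 3 comparisons), a larger drop than the 17.3 points over all full-span reads. Reads with an upstream intron retained are left out here. They nearly always kept intron 18 and were a different share of each library, as given below, so the sizes of these drops do not compare like with like. With the mutated site, retention was 30.04 points above the intact segment (20.6 to 38.2, adjusted exact p = 2.45e-09) and 2.41 points from short_1 (-8.62 to 12.9, adjusted exact p = 0.694).

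Reads with an upstream intron retained nearly always kept intron 18 as well, whatever the minigene. They kept it in 14 of 14 reads in short_1, 258 of 265 in short + 72 nt (97.4%) and 66 of 72 with the mutated site (91.7%), but they made up 7.65%, 22.6% and 38.7% of the reads in question. In shorter reads that begin at intron 16 and have introns 16 and 17 excised, intron 18 was retained in 63.6%, 47.5% and 78.3% of 33, 670 and 143 reads. There the mutated segment was again above the intact one (30.9 points, adjusted exact p = 2.15e-11), and the 2 comparisons with short_1 did not pass (adjusted exact p = 0.114 each).

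**Figure D3:**
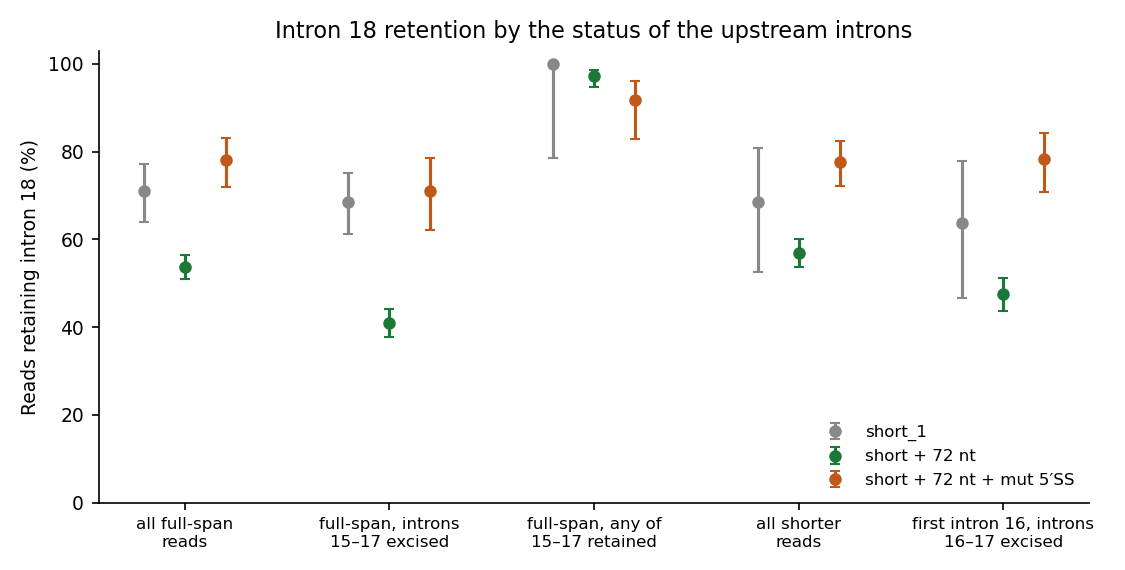
Percentage of reads retaining intron 18 in the 3 libraries, over all full-span reads, by the status of introns 15 to 17, and in shorter reads, with 95% Wilson intervals as bars. With introns 15 to 17 excised the values are 68.6%, 41.0% and 71.1%, and with any of them retained they lie between 91.7% and 100%.

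At introns 16 and 17, skipping was rare in short_1 and short + 72 nt and more frequent with the mutated site. Over introns 15 to 18, reads with any intron skipped were 0 of 182, 32 of 1178 (2.72%) and 22 of 201 (10.9%). All 3 pairs passed for this class over the 18 comparisons of classes. Short + 72 nt was above short_1 by 2.72 points (0.505 to 3.81, adjusted exact p = 0.0240, Fisher's exact test). At introns 16 and 17 taken singly, that pair did not pass (adjusted exact p = 0.147 and 0.192, Fisher's exact test over 12 comparisons). Intron 16 was skipped in 0 of 185 short_1 reads (which allows up to 1.62%), in 22 of 1200 short + 72 nt reads (1.83%) and in 20 of 206 reads with the mutated site (9.71%). The mutated-segment library was above short + 72 nt by 7.88 points (4.41 to 12.7, adjusted exact p = 1.93e-06) and above short_1 by 9.71 points (5.80 to 14.5, adjusted exact p = 7.58e-06). Intron 17 was skipped in 0, 20 and 19 reads, again past the threshold for the mutated-segment library against both others (adjusted exact p = 1.93e-06 and 1.10e-05).

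Of those skipped introns, intron 16 had only its 3′ splice site unused in 21 of 22 and 20 of 20 reads, and intron 17 had only its 5′ splice site unused in all 20 and 19 reads. Both sites together mark the loss of exon 17, whose length is a multiple of 3 nt. This joint pattern, chosen after the values were seen and given without a test, was found in 19 of 1194 full-span short + 72 nt reads (1.59%) and in 19 of 206 with the mutated site (9.22%). In shorter reads that begin at intron 16 it was found in 0 of 36 (up to 8.33%), 20 of 854 (2.34%) and 32 of 239 (13.4%).

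The shorter reads bear on skipping directly, since they repeat the tested difference in other molecules. Intron 16 was skipped in 2.57% of 855 short + 72 nt reads and 13.9% of 244 with the mutated site, 11.4 points apart (7.36 to 16.3, adjusted exact p = 1.55e-09), and short_1 was at 0 of 36 (adjusted exact p = 0.0267 against the mutated segment). In both read sets together, exon 17 was absent from 39 of 2048 short + 72 nt reads (1.90%) and 51 of 445 with the mutated site (11.5%). Among these pooled reads without exon 17, intron 18 was retained in 25 and excised in 12 with the intact segment. With the mutated site it was retained in 32 and excised in 18. In full-span reads alone, it was retained in 11 and excised in 6 with the intact segment, and retained in 13 and excised in 5 with the mutated site. All full-span reads of these libraries retained it in 53.7% and 78.0%, and the counts were not tested against the other reads.

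In other libraries exon 17 skipping was lower than with the mutated segment. It was found in 0.821% and 0.597% of reads of the short_1 amplicon replicates. The long amplicon replicates, not drawn in the figure, had 1.01% and 0.658%, the former the highest among the other libraries. Among DRS reads it was found in 0.609% of long, 0.386% of Δint19+20 and 0.129% of mut 5′SS reads. The last of these has the same 4 nt mutated in a minigene with the whole of introns 19 and 20. Reads of the same 3 libraries that begin upstream of intron 15 and reach intron 20 or 21, which the minigenes do not encode, lacked exon 17 in 0 of 22, 0 of 217 and 0 of 51 reads, allowing up to 13.6%, 1.38% and 5.88%. They also retained intron 18 in only 1, 8 and 0 reads, which sets the 3 libraries' endogenous-type reads apart from their minigene reads.

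Intron 18 was itself skipped in 0, 12 and 4 full-span reads (0 of 183, 1.004% and 1.95%), with no pair past the threshold. The partial intron 19 was undetermined in every full-span and shorter read of both minigenes with the segment, and its 3′ end is absent from both minigenes, so whether its 5′ splice site was used cannot be read from these reads. Combinations were counted to 8 different ones in short_1, 21 in short + 72 nt and 16 with the mutated site. The 7 that ranked among the 5 most frequent of any library held 98.9%, 95.5% and 89.8% of full-span reads, and the 1 of them not yet named was undetermined at intron 18 with introns 15 to 17 excised (3, 4 and 0 reads).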

How the data were processed

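HEK293T cells expressing each minigene were sequenced as direct RNA (1 library each). Per the paper's methods, the authors used minimap2 (spliced, stranded settings) against GRCh38, retained only unique alignments and took each intron's status from the alignment, and per the labels and file headers they deposited raw counts of reads per combination of introns and statuses, without normalization or a filter on span. Basecalling was done by MinKNOW or Dorado and flow cells were washed and used again, and which of these applied to each library is not given in the sources used here. File intron numbers run from the 3′ end and were turned into transcript order by subtraction from 21. The methods name introns 15 to 18 for all 3 minigenes, but in the files reads with the segment list introns 15 to 19, so those rows were used for the minigenes with the segment, and their rows over exactly introns 15 to 18 (159 and 6 reads) were an alternative. Shorter reads were selected as described, undetermined reads were left out at the intron measured, and skipped reads stayed in the denominator.

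Shares have 95% Wilson intervals, differences Newcombe intervals, and a share of 0 the limit of 3 counts. Pairs of libraries were tested on their reads with Fisher's exact test, two-sided, at an adjusted p of 0.05 (Python 3.11.15, SciPy 1.17.1, matplotlib 3.10.9). Depth was 183 to 1200 full-span reads per intron and library. Counting was tested on 8 simulated libraries of 16000 reads in all, with a largest difference of 0. All introns 15 to 18 were named, and combinations among the 5 most frequent of any library. The libraries, lists and tests were chosen with earlier results of these data known. Plasmid sequences and the alternative allele were not analysed here.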

Additional observations from a re-analysis of the deposited data

Results flagged for a closer look

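Reads with a span that the transfected minigene does not have, or without a part it does have, were kept out of the comparisons and are given as values. The short_1 library held 31 reads over introns 15 to 20 (10.5% of its reads), although that minigene ends in exon 19, and no read of the other 2 libraries had this span. Intron 18 was excised in 29 of the 31. Per the methods, flow cells were washed and used again for further samples, and whether these reads were carried over from another library was not tested.

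In short + 72 nt, 159 reads ran over exactly introns 15 to 18 without the segment, 11.7% of the 1359 reads that begin at intron 15 and end at intron 18 or in the segment. With the mutated site there were 6 of 212 (2.83%), 8.87 points fewer (interval -11.2 to -5.29, with no test). Reads that begin at intron 16 or 17 gave 11.9% and 3.01%. The reads without the segment in short + 72 nt excised intron 18 in 105 and retained it in 29 of 153 determined reads (19.0%), against 53.7% in reads with the segment, and 17 of them had the 5′ splice site of intron 18 unused. In the shorter reads without it, 9 of 116 retained intron 18 (7.76%).

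Reads that reach intron 21 with introns 20 and 21 skipped numbered 5 in short_1, 105 in short + 72 nt and 15 with the mutated site. Of the 62 in short + 72 nt that begin at intron 15, 43 retained intron 18 (69.4%). The source of these 3 kinds of read was not tested.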

How the results depend on the processing

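No paired analysis was possible because each minigene has 1 direct RNA library. Of 243 values of the main comparisons under the alternatives, 219 kept their direction and their side of the threshold (199 of 222 for the other values). Changed calls of the main comparisons and all changes of direction are given here in percentage points. Among the other values, 10 changed direction, 7 were no longer past the threshold and 6 came to pass it.

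Restricting all 3 libraries to reads over exactly introns 15 to 18 left 159 and 6 reads of the minigenes with the segment, none of which carries it. Short + 72 nt minus short_1 was then -2.17 at intron 16 and -0.700 at intron 17 retained, and 5.03 and 5.66 skipped. Mutated minus intact segment was 10.4 at intron 17 and 47.7 at intron 18 retained, -35.3 at intron 18 excised, -1.89 and 1.89 at intron 15 retained and excised, and -5.03, -5.66 and -12.4 at introns 16, 17 and 18 skipped. Mutated segment minus short_1 was 10.7, 9.68 and -4.37 at introns 16, 17 and 18 retained, 4.37 at intron 18 excised, -1.61 and 1.61 at intron 15 retained and excised, and 0 at introns 16 and 17 skipped.

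With a minimum of 10 reads per combination, mutated segment minus short_1 passed at intron 18 (14.9 retained, -14.9 excised), and mutated minus intact segment turned at intron 15 (-4.12 retained, 4.12 excised). A minimum of 2 gave -9.78 at intron 18 excised, now past the threshold, and -0.00756 at intron 18 skipped. With full-span and shorter reads together, intron 18 excised passed for mutated segment minus short_1 (-8.37), and introns 16 and 17 skipped for short + 72 nt minus short_1 (2.14 and 2.12). Mutated minus intact segment passed at intron 16 retained when skipped reads were left out (6.90) and, in an alternative chosen after seeing the data, with reads that lack the segment added (6.28), where intron 18 skipped turned to -0.377. With every read over introns 15 to 18, intron 18 skipped turned to -0.417, and intron 18 retained with introns 15 to 17 excised to -3.67 for mutated segment minus short_1 (adjusted exact p = 0.481). Adding reads that reach intron 21, also chosen after seeing the data, changed no call. The causes were not tested. Counting error limits short_1 most, with 183 full-span and 38 shorter reads at intron 18.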
